A study of Rattus norvegicus with 9 samples.

Results

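Ldha and Pdk3, which encode a lactate dehydrogenase subunit and a pyruvate dehydrogenase kinase, were followed in lung tissue of rats exposed to cigarette smoke or fine particles. Each gene is represented by 1 Agilent catalogue probe, found by matching the probe's accession to the rat RefSeq gene table: A_44_P210461 (NM_017025) for Ldha and A_44_P443343 (NM_001106581) for Pdk3. They are 2 of 30 catalogue probes with a gene symbol, among 38804 probes on the array. The other 38774 probes had no accession in that gene table. Shares, medians and ranks over all tested probes are thus set almost wholly against those, and are not places among named genes. The study comprised 9 single-colour arrays of male Wistar rat lung, 3 per group. The label protocol gives their age as 6 to 8 weeks, with no statement of whether that was at the start, and the age at sampling is not stated. One group was exposed to CS, read from the series title as cigarette smoke, and one to fine particulate matter (PM2.5), each for 90 days, and the titles call both a COPD model (chronic obstructive pulmonary disease). The control group inhaled NS over the same 90 days, an abbreviation that is not spelled out. The labels list archiving after 90, 91 and 92 days for replicates 1, 2 and 3 of each exposed group and after 90 days for every control rat, and whether the steps that follow the replicate number are real days was not checked. The labels call the arrays biological replicates but do not tie each array to a named animal, so the p-values measure the spread between these arrays.

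Pyruvate, the end product of glycolysis, has 2 main fates that these genes bear on. Lactate dehydrogenase converts it to lactate in the cytosol and back, and the subunit encoded by Ldha favours lactate formation, which restores the NAD+ that glycolysis needs. The pyruvate dehydrogenase complex instead turns it into acetyl-CoA in mitochondria, and the kinase encoded by Pdk3 switches that complex off by phosphorylating its E1 alpha subunit. Both genes are known targets of the hypoxia-inducible factor HIF-1, which binds the core letters ACGTG or GCGTG, and lung tissue is known to form lactate even when well supplied with oxygen.

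Because both genes are known hypoxia targets, the 250 bases before each gene start are shown from RefSeq (build GRCr8), with every ACGTG or GCGTG, on either strand, in capitals. The Ldha window lies at chr1:106507842-106508091 on the plus strand and the Pdk3 window at chrX:62547372-62547621 on the minus strand, both read 5′ to 3′ towards the gene.
Ldha: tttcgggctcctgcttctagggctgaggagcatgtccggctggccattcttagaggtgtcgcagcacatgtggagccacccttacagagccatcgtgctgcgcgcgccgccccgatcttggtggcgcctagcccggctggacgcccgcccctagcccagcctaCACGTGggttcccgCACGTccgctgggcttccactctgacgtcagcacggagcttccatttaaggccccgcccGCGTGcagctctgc
Pdk3: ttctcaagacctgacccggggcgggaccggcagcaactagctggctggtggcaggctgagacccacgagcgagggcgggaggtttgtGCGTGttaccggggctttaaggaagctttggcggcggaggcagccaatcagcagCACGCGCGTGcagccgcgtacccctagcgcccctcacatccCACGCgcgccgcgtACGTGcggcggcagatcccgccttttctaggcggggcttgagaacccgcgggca

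Motifs were counted on both strands, and overlapping matches were counted separately. In the Ldha window ACGTG matched 3 times and GCGTG once, while in the Pdk3 window ACGTG matched once and GCGTG 4 times. The Ldha matches include the palindrome CACGTG, an E-box that spans bases 87 to 82 before the start and holds ACGTG on both strands. Of 33465 rat gene windows of the same length, 16.6% held ACGTG, 25.9% held GCGTG and 5.76% held both. The GC box GGGCGG matched 3 times in Ldha and 2 times in Pdk3 (30.5% of windows held it), CCAAT matched in Pdk3 alone of the pair (34.0% of windows), and the cAMP response element TGACGTCA matched in Ldha alone of the pair, at bases 51 to 44 before the start (1.59% of windows). Both windows were rich in G and C, at 66.4% in Ldha and 68.0% in Pdk3 against a median of 51.2%. These are letter matches, and binding was not measured.

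Both probes gave signals well above the local background. Each was spotted 10 times on every array, and all 90 spots per gene were well above background and unsaturated, with 1 Ldha spot on CS 1 left out as an outlier. Median spot signals were 119 to 374 times the local background for Ldha and 7.84 to 26.1 times for Pdk3, the lower values lying on exposed arrays. The coefficient of variation among the spots of an array was 5.71% to 9.51% for Ldha and 5.74% to 12.7% for Pdk3, so an array's mean had a spot standard error of at most 0.04 and 0.06 log2 units. Spots of the same array share their RNA and are not replicates of a rat.

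The arrays differed in ways that go with the groups. By their scan records, the control arrays shared 1 slide read on a second day, and the exposed arrays lay on 3 other slides read on a first day. Being a control therefore cannot be told apart from that slide or that day. Control arrays were brighter, with a 75th percentile of 348 ± 7.63 (SD, n = 3) signal units, while this percentile was 210 ± 13.2 in CS and 205 ± 55.7 in PM2.5 (SD, n = 3 each). Values below are log2 signals minus that percentile, a scale on which the median tested probe was 0.45 higher in CS and 0.51 higher in PM2.5 than in control, but only 0.06 and 0.07 higher after quantile normalization. The E1A control spots, designed without a target in rat RNA, were higher by 0.70 in CS and 0.80 in PM2.5 on this scale. Subtracting a lower percentile lifts every level of an array, so this does not show a rise in their raw signal. The part of the E1A signal, and that of array brightness, in the results was not tested. No probe carried a name from a list of 32 marker genes of lung, blood, endothelium, fibroblasts, heart and liver, so the tissue label was not checked. In bulk lung RNA, fewer cells of a type and less RNA per cell cannot be told apart.

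Ldha, the gene of the lactate-forming subunit, was lower in both exposed groups than in control. On control arrays its level was 3.83, 3.78 and 3.75 in replicates 1 to 3, a mean of 3.79 ± 0.04 (SD, n = 3). On CS arrays it was 3.19, 3.37 and 3.04, a mean of 3.20 ± 0.17 (SD, n = 3). On PM2.5 arrays it was 3.37, 2.96 and 3.27, a mean of 3.20 ± 0.22 (SD, n = 3). Every exposed array lay below every control array, as for 8.83% of tested probes, and PM2.5 2 was lowest. Before scaling, mean Ldha signals were 4583 to 5016 on control arrays, 1599 to 2250 on CS arrays and 1402 to 2604 on PM2.5 arrays.

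Ldha fell by 0.59 log2 units in CS (SE 0.14, adjusted p = 0.0123, limma with Benjamini-Hochberg adjustment over 37643 probes), which is 66.4% of the control level (95% interval 53.1% to 83.1%). In that comparison 47.2% of all tested probes passed at an adjusted p below 0.05, and 8.42% passed as lower in CS. Ldha fell by 0.59 in PM2.5 too (SE 0.14, adjusted p = 0.00898), to 66.5% of control (95% interval 53.1% to 83.1%), where 56.8% of probes passed and 9.78% passed as lower. A share of 5.99% of probes changed as far downwards as Ldha in CS, and 6.58% in PM2.5. Both calls were lost with normexp background correction (adjusted p = 0.119 and 0.0939), with a random slide term (0.134 and 0.0828) and when the 3 control arrays entered as 1 sample (0.220 and 0.163), and the CS call also without control 1 (0.0524). Centring each array on its median moved the changes to −0.97 and −1.03.

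Pdk3, the gene of the kinase that shuts pyruvate out of mitochondrial oxidation, was also lower in both exposed groups. Its control levels were −0.14, −0.14 and −0.18 in replicates 1 to 3, a mean of −0.15 ± 0.02 (SD, n = 3). Its CS levels were −0.95, −1.31 and −0.91, a mean of −1.06 ± 0.22 (SD, n = 3). Its PM2.5 levels were −0.84, −1.21 and −1.08, a mean of −1.04 ± 0.19 (SD, n = 3). The E1A control spots stood at means of −3.31 in control, −2.61 in CS and −2.51 in PM2.5. Pdk3 thus lay nearer to the E1A level on exposed arrays than on control arrays. Whether the E1A level marks the background of an array was not tested. Control and exposed arrays did not overlap in Pdk3, and 8.83% of tested probes were likewise lower on every exposed array. The lowest control array lay 0.66 above the highest exposed array, PM2.5 1. None of 60 exposed Pdk3 spots reached the lowest of 30 control spots. For Ldha 2 of 59 exposed spots, both on CS 2, reached the lowest control spot. Spots are not replicates of a rat, and the share of other probes with such a spot separation was not computed. Before scaling, mean Pdk3 signals were 301 to 322 on control arrays, 88.0 to 114 on CS arrays and 78.2 to 128 on PM2.5 arrays.

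Pdk3 fell by 0.91 log2 units in CS (SE 0.15, adjusted p = 0.00266, limma), to 53.4% of control (95% interval 42.5% to 67.1%). It fell by 0.89 in PM2.5 (SE 0.15, adjusted p = 0.00164), to 53.9% (95% interval 42.9% to 67.7%). A share of 2.96% of probes changed as far downwards in CS and 3.46% in PM2.5. Both calls held under normexp (log2 change −0.62, adjusted p = 0.0413 in CS, and −0.62, adjusted p = 0.0346 in PM2.5), where 6.34% and 8.13% of probes passed. They were lost when the control arrays entered as 1 sample (adjusted p = 0.151 and 0.0878), and under a random slide term the CS value lay just over the threshold (0.05001) while the PM2.5 value passed (0.0315). The share of all probes that passed was 6.3% in CS and 21% in PM2.5 under the random slide term, and 0.441% and 3.78% with the controls as 1 sample. The direction of the calls moved with the scaling: under quantile normalization 24.7% of probes passed in CS, 12.8% as lower, and 29.8% in PM2.5, 15.1% as lower. Under centring on the median 24.2% passed in CS, 16.5% as lower, and 33.3% in PM2.5, 20.6% as lower. Ldha and Pdk3 passed as lower under both scalings.

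**Figure D1:**
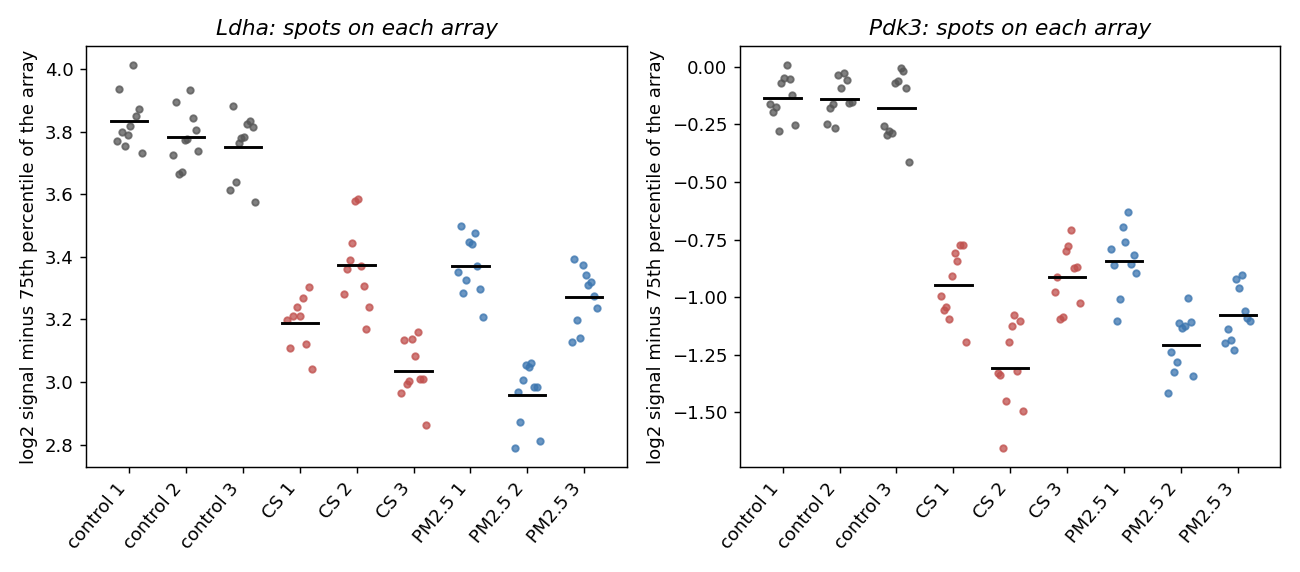
Signal of each unflagged spot of the Ldha probe (left) and the Pdk3 probe (right), as log2 signal minus the 75th percentile of the array, for the 9 arrays; points are spots and black lines array means. The 3 control arrays sit together at 3.75 to 3.83 for Ldha and at −0.18 to −0.14 for Pdk3, above all exposed array means.

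**Figure D2:**
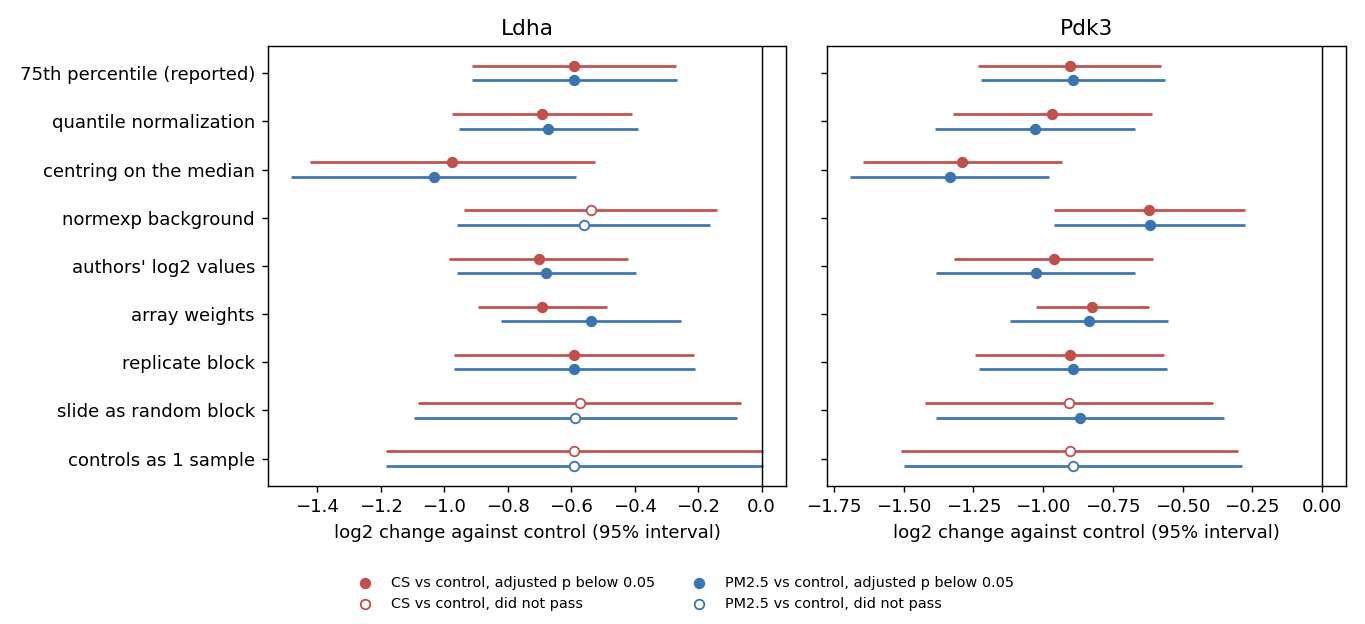
Log2 change of Ldha (left) and Pdk3 (right) in CS and PM2.5 against control under 9 settings, with 95% intervals from limma; filled points passed an adjusted p of 0.05 and open points did not. All estimates are below 0, from −1.03 to −0.54 for Ldha and from −1.34 to −0.62 for Pdk3, and the intervals are widest where the controls enter as 1 sample and next widest under the random slide term.

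The mean of all 6 exposed arrays was also set against the 3 control arrays. In the fit across all probes Ldha changed by −0.59 (SE 0.12, adjusted p = 0.00433, limma) and Pdk3 by −0.90 (SE 0.13, adjusted p = 0.000795), where 62.6% of probes passed and 9.87% passed as lower. In the exact test the difference was −0.59 for Ldha (two-sided exact permutation p = 0.0238, lower in 6 of 6 exposed arrays) and −0.90 for Pdk3 (two-sided exact permutation p = 0.0238, lower in 6 of 6), and 0.0238 is the smallest p that 6 against 3 arrays can give. A probe whose 6 exposed arrays all lie below its 3 control arrays was not rare: 8.83% of tested probes did so. Within single exposures the share was 13% in CS and 13.1% in PM2.5, and 3 against 3 arrays cannot give an exact p below 0.1.

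A reading that no scaling can move is the place of a probe among all tested probes on its own array. Control arrays had Ldha above 95.1% ± 0.09 of probes, CS arrays above 92.5% ± 0.74 and PM2.5 arrays above 92.5% ± 0.74 (SD, n = 3 each). They had Pdk3 above 73.5% ± 0.23, 62.9% ± 2.22 and 61.8% ± 4.92 in the same order (SD, n = 3 each). Both genes thus dropped in rank on every exposed array, Pdk3 from at least 73.2% on each control array to between 56.2% and 65.6%, and the groups did not overlap. Of all tested probes 15.3% also ranked lower on all 6 exposed arrays than on any control array, so this pattern was not rare. These ranks place a probe on its array and do not compare the amounts of different RNAs.

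**Figure D3:**
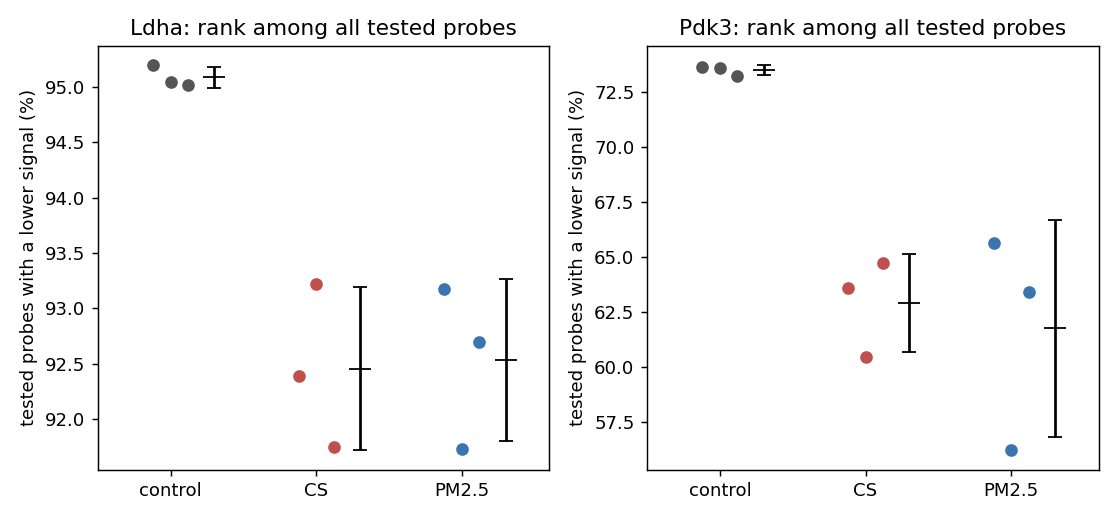
Percentage of tested probes with a lower signal than Ldha (left) and Pdk3 (right) on the same array; points are arrays and bars the mean and SD of 3 arrays, and the vertical axes do not start at 0. Ldha stands at a mean of 95.1% on control arrays and at 91.7% to 93.2% on exposed arrays.

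CS was then compared directly with PM2.5, since both effects rest on the same control arrays. For Ldha the CS minus PM2.5 difference was −0.00076 log2 units (95% interval −0.32 to 0.32, adjusted p = 0.999, limma). For Pdk3 it was −0.01 (95% interval −0.34 to 0.32, adjusted p = 0.988). In that comparison 5.88% of probes passed, and 2.75% passed as lower in CS. Neither gene differed detectably, and the intervals leave room for a ratio of 79.9% to 125% for Ldha and 78.8% to 125% for Pdk3. These intervals pool in the smaller spread of the control arrays and may be too narrow. With only the CS and PM2.5 arrays fitted, the SE was 0.180 for Ldha and 0.184 for Pdk3, against 0.143 and 0.146. On the slide that held CS 2, CS 3, PM2.5 1 and PM2.5 2, the difference was 0.04 for Ldha (adjusted p = 0.926) and −0.09 for Pdk3 (adjusted p = 0.837, limma).

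Variation inside the exposed groups was several times that inside the control group. The SD of Ldha was 0.04 in control, 0.17 in CS and 0.22 in PM2.5, against a median over all tested probes of 0.08, 0.22 and 0.27. The SD of Pdk3 was 0.02 in control, 0.22 in CS and 0.19 in PM2.5. The members were therefore about as even among exposed arrays as a typical probe, or more so. The control arrays shared a slide and the exposed arrays did not all do so. The part of slides in this spread was not tested. The fits pool this spread over the 3 groups.

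Subtracting the Pdk3 level from the Ldha level on the same array removes any shift common to all probes of that array. The difference was 3.97, 3.92 and 3.93 on control arrays 1 to 3, 4.14, 4.68 and 3.95 on CS arrays and 4.21, 4.17 and 4.35 on PM2.5 arrays. It was larger than in control on all PM2.5 arrays, while CS 3 lay within the control range, and CS 2, which had the highest Ldha and the lowest Pdk3 of the CS arrays, lay farthest out. The mean gap was 0.32 in CS (two-sided exact permutation p = 0.2) and 0.30 in PM2.5 (two-sided exact permutation p = 0.1, the smallest possible). Over both exposures it was 0.31 (two-sided exact permutation p = 0.0476), or 0.190 after Benjamini-Hochberg adjustment over the 4 comparisons of this difference. The unadjusted p was 0.0714 after quantile normalization, 0.0952 with the authors' deposited log2 values and 0.690 under normexp, where the gap was 0.070 over both exposures, 0.082 in CS and 0.058 in PM2.5. Normexp added an offset of 50 signal units, which weighs more on the dim Pdk3 signals than on Ldha. The part of this offset in the smaller gap and the smaller Pdk3 fall was not tested. After adjustment, the difference between the falls of the genes did not pass. Without CS 2 the gap was 0.10 in CS (two-sided exact permutation p = 0.4, with 0.2 the smallest possible) and 0.22 over both exposures (two-sided exact permutation p = 0.0714).

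No relation between the genes was detected among the exposed arrays, in the 1 pair tested. Over the 6 exposed arrays Pearson's r between Ldha and Pdk3 levels was 0.02 (exact permutation p = 0.981) and Spearman's rho was −0.09 (exact permutation p = 0.919). Without CS 3 and PM2.5 2, the arrays farthest from the median of Ldha, r was −0.27 over 4 arrays. After quantile normalization r was 0.33 (exact permutation p = 0.542, 6 arrays) and rho was 0.20 (exact permutation p = 0.714). A correlation of this size cannot be told from 0 with 6 arrays. The control arrays were left out of this test, since control and exposed arrays form separate clusters. CS 2 and PM2.5 1 had nearly the same Ldha level, 3.37, yet differed in Pdk3 by 0.47, and PM2.5 2 was low in both.

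**Figure D4:**
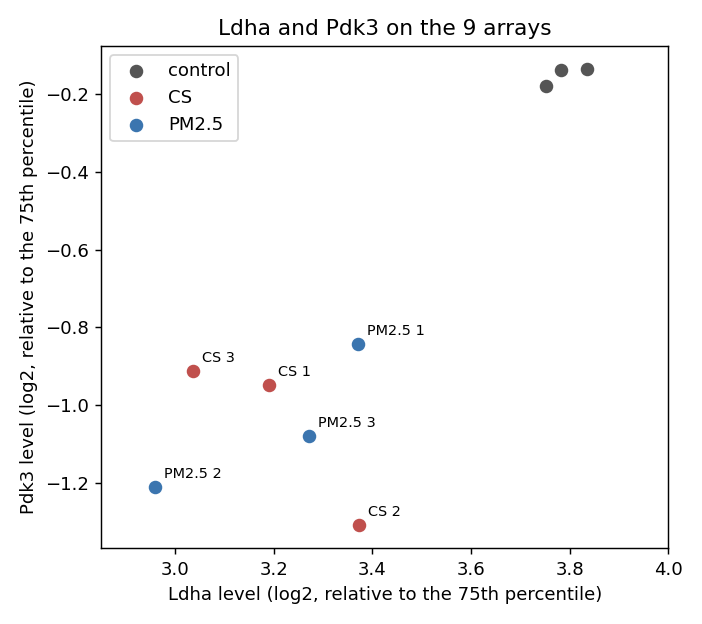
Ldha level (horizontal) against Pdk3 level (vertical) on the 9 arrays, both as log2 signal minus the 75th percentile of the array. The 3 control arrays cluster at the upper right and the 6 exposed arrays scatter below and to the left with r = 0.02 among them.

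Among the 29 named protein-coding catalogue genes, Pdk3 had the second lowest change in CS, between Mex3c, an RNA-binding ubiquitin ligase gene (−0.91), and Cyp2e1, which encodes an ethanol-oxidising cytochrome P450 (−0.87). Ldha had the fifth lowest change, between Pld1, a phospholipase D gene (−0.71), and Ppp2r2b, a protein phosphatase 2A subunit gene (−0.54). In PM2.5 Pdk3 had the third lowest change, between Ppp2r2b (−1.23) and Ptk2b, a focal adhesion kinase relative (−0.72), and Ldha the sixth lowest, between Cdh2, the N-cadherin gene (−0.61), and Pld1 (−0.58). The median change of the 29 genes was −0.13 in CS and −0.25 in PM2.5, and both comparisons share the control arrays. Of these 29 genes, 10 passed as lower and 8 as higher in CS, and 14 as lower and 6 as higher in PM2.5. Passing as lower was thus common among the named genes.

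The named genes whose levels over the 9 arrays were most like those of Ldha were Cdh2 (Pearson's r = 0.96), Cyp2e1 (0.95) and Ndfip2, an adaptor of Nedd4-family ubiquitin ligases (0.91). Those most like Pdk3 were Ndfip1, the other such adaptor (0.97), Ndfip2 (0.94) and Mex3c (0.90). These values are on the 75th percentile scale and describe 9 arrays that share the split between control and exposed arrays. The order moved with the scaling: after quantile normalization the closest to Pdk3 were Ndfip2 (0.98), Ndfip1 (0.97) and Map2, a microtubule-associated protein gene (0.94). For Map2 the sign moved too, as its r with Pdk3 was −0.54 on the 75th percentile scale. Closest to Ldha after quantile normalization were Cyp2e1 (0.95), Cdh2 (0.94) and Pdk3 (0.92). Over the 6 exposed arrays alone, on the 75th percentile scale, r with Ldha was 0.87 for Cdh2, 0.82 for Cyp2e1 and 0.61 for Ndfip2. With Pdk3 it was 0.80 for Ndfip1, 0.80 for Ndfip2 and 0.62 for Mex3c, and between Ldha and Pdk3 it was 0.02. These genes were picked on all 9 arrays. Over the exposed arrays alone, on the same scale, Cse1l was closest to Pdk3 (0.82), and the strongest relation to Ldha was an inverse one with Odf2l (−0.95). After quantile normalization Ndfip2 was closer to Pdk3 over these arrays (0.93) than Cse1l was (0.86). Cdh2 and Ldha were both lowest on PM2.5 2. Cdh2 stood there at −2.10, against −1.57, −1.57 and −1.84 on CS arrays and −1.44 and −1.77 on the other PM2.5 arrays. The E1A control spots of PM2.5 2 stood at −2.04, close to Cdh2, and whether they mark the floor of that array was not tested.

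**Figure D5:**
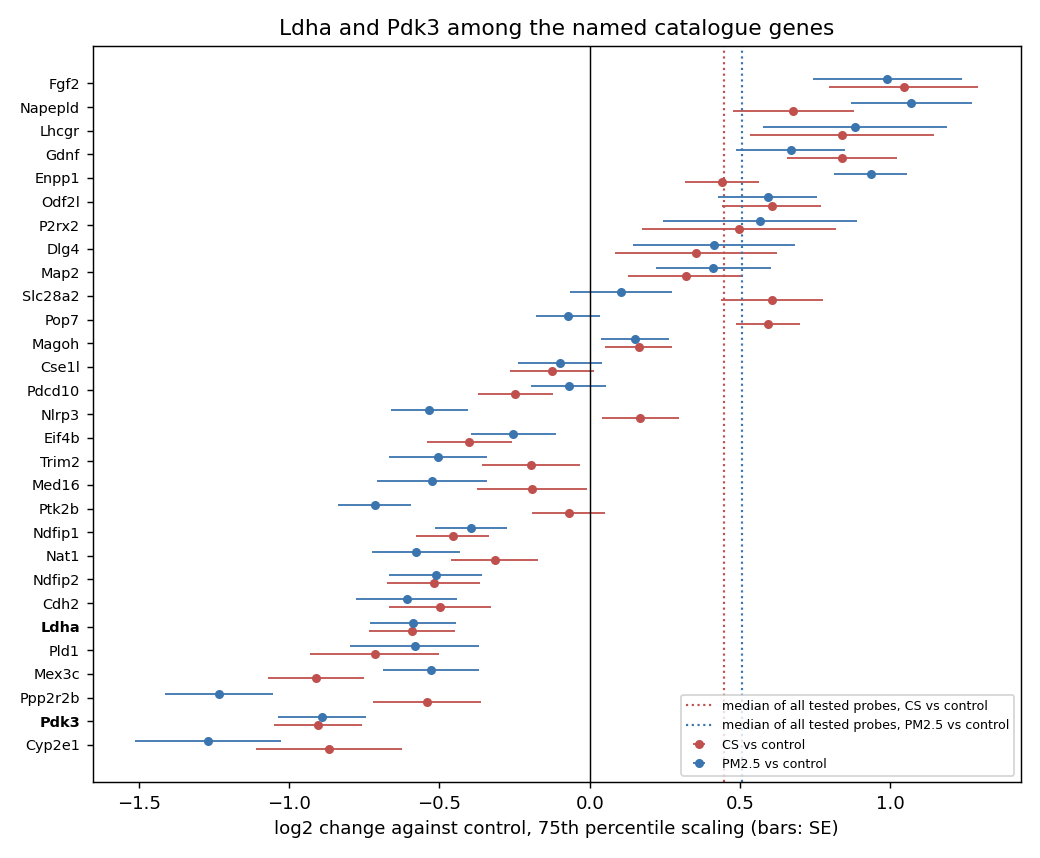
Log2 change against control in CS and PM2.5 for the 29 named catalogue genes, with SE bars, ordered by the mean of both changes; dotted lines mark the median of all tested probes (0.45 and 0.51) and bold names Ldha and Pdk3. Pdk3 lies at −0.91 and −0.89 and Ldha at −0.59 and −0.59, on the left of both medians.

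No other gene of the pathway could be read by name. Of a list of 62 genes for lactate dehydrogenases, pyruvate dehydrogenase kinases, phosphatases and subunits, pyruvate and lactate carriers, glycolytic enzymes and their regulators, only Ldha and Pdk3 had a probe with a matching accession. The related subunits Ldhb and Ldhc, the kinases Pdk1, Pdk2 and Pdk4, the pyruvate dehydrogenase genes Pdha1, Pdhb and Dlat and the lactate exporter gene Slc16a3 were among those without one, so a shift between members of these families was not measured. The probe sequences were not used here, and whether the probes also bind RNA of related genes was not tested. The levels describe RNA, and neither lactate nor enzyme activity was measured.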

How the data were processed

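The deposited scanner files hold the intensity of each spot of 1-colour arrays, read, per the file headers, by Feature Extraction 11.0.1.1, whose processed signal already has the background removed. Their other values are flags of 0 or 1 for background, saturation and outliers, as deposited. The authors' normalized table holds log2 values whose columns have nearly equal quartiles, and correlated with the log2 scanner signal at 0.997 to 0.999; how it was made is not given in the sources used here. On each array 37259 to 38200 probes exceeded background clearly. An array gives no count, and 3 arrays per group limit the precision.

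Flagged spots were left out, spots of a probe averaged on the log2 scale and each array's 75th percentile subtracted. Probes well above background on all 3 arrays of a group and measured on every array were tested (37643 of 38804) with limma 3.58.1 in R 4.3.3 (lmFit, eBayes, a mean per group over 9 arrays, two-sided, Benjamini-Hochberg over all probes, threshold 0.05). The fit was tried on simulated arrays with independent noise, the same SD in every group and no slide or day effect. That trial therefore says nothing about unequal spread or slides in these data. Exact permutation tests used scipy 1.17.1. Normexp, run as an alternative, used an offset of 50 signal units. Genes named beside the members are the 3 other catalogue genes with the highest Pearson correlation and the neighbours in the order of changes. Cse1l and Odf2l are named for their correlation over the exposed arrays alone. Arrays with the same scan record were taken as a slide. Replicate numbers were not used to pair the arrays in the main fit (correlation of deviations between CS and PM2.5 arrays of the same number 0.18, −0.45 and 0.06). Arrays of different numbers were not compared in this way, so these values cannot decide whether the arrays were paired. Alternatives are given in the closing section. The members and gene lists were chosen with earlier results of these data known. Feature coordinates from the array's header build rn4 were not used.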

Additional observations from a re-analysis of the deposited data

How the results depend on the processing

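Against control both genes kept their direction in every alternative run, and other than with left-out arrays Ldha lay at −0.97 to −0.54 in CS and −1.03 to −0.54 in PM2.5, Pdk3 at −1.29 to −0.62 and −1.34 to −0.62. Calls were lost as follows, in CS, PM2.5 and both exposures together. Normexp gave Ldha −0.54, −0.56 and −0.55 (adjusted p 0.119, 0.0939 and 0.0516). A random slide term gave Ldha −0.57, −0.59 and −0.58 (0.134, 0.0828 and 0.0860) and Pdk3 −0.91 in CS (0.05001). Controls as 1 sample gave Ldha −0.59 each time (0.220, 0.163 and 0.155) and Pdk3 −0.91, −0.89 and −0.90 (0.151, 0.0878 and 0.0932). Left-out arrays gave Ldha −0.68 to −0.51, −0.67 to −0.47 and −0.63 to −0.53 (0.0524 in CS without control 1) and Pdk3 −0.98 to −0.78, −0.99 to −0.81 and −0.95 to −0.84. Quantile normalization without CS 2, added after the data were seen, kept both CS calls (−0.78 and −0.88). The cause was not tested.

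CS minus PM2.5 had no settled sign and never passed. Ldha turned to 0.058 with centring on the median, 0.023 with normexp, 0.014 with the random slide term and 0.040 both on the shared slide and with a fixed slide term (added after the data were seen), and left-out arrays gave −0.12 to 0.084. Pdk3 turned to 0.063 with quantile normalization, 0.045 with centring, 0.065 with the authors' values and 0.012 with array weights, and left-out arrays gave −0.10 to 0.11.

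The Ldha minus Pdk3 gap over both exposures was 0.32 (quantile), 0.070 (normexp), 0.30 (authors' values) and 0.30 (spot medians), all with an unadjusted exact p above 0.05, and 0.22 to 0.37 with left-out arrays (unadjusted exact p 0.0357 without CS 3 and 0.0714 or more in the others). Its CS minus PM2.5 value turned to −0.082 (quantile), −0.089 (authors' values) and −0.0018 (spot medians), with left-out arrays at −0.20 to 0.17.

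The replicate block changed no call of either gene (Ldha adjusted p = 0.0335 and 0.0254, Pdk3 0.00890 and 0.00525, limma). Probes passing were 17756 in CS and 21392 in PM2.5, but 9313 and 11231 (quantile), 9103 and 12550 (centring), 2388 and 3062 (normexp), 9425 and 11333 (authors' values), 2371 and 7901 (random slide term), 166 and 1423 (controls as 1 sample), 28457 in CS with array weights, and 8001 to 21914 and 13255 to 25075 with left-out arrays (lowest without control 1 in each, and in CS also 8544 without control 2, 11007 without control 3, 11235 without CS 1 and 10362 without CS 3, and in PM2.5 14043 without control 2). Over both exposures 23556 became 12151, 13447, 3656, 12277, 5539 and 465 in the first 6 of these settings, and 14772 without control 1. Between CS and PM2.5, 2214 became 510 (normexp), 625 (controls as 1 sample), 627 (only these groups), 1204 (replicate block) and 375 (shared slide, which holds no control array), and 1331 to 2574 with left-out arrays (1342, 1331 and 1393 without control 1, 2 and 3, 1396 without CS 1 and 1459 without PM2.5 3).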

Other observations

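The control arrays were even in Ldha on the processed signal (3.83, 3.78 and 3.75) but less so after normexp on the median spot and background signals, where they stood at 3.25, 3.57 and 3.51, an SD of 0.17 against 0.04. Pdk3 on the same arrays was −0.09, −0.14 and −0.19 after normexp, an SD of 0.05 against 0.02. In the authors' deposited log2 values Ldha was 11.8 on each control array, 10.9 to 11.3 on CS arrays and 10.9 to 11.3 on PM2.5 arrays, and Pdk3 was 7.76 to 7.81, 6.65 to 6.96 and 6.40 to 7.03.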
